A study of Mus musculus with 13 samples.

Results

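The 4 genes of the nuclear factor I (NFI) family in the mouse, Nfia, Nfib, Nfic and Nfix, were followed through a 300 kb map of 5-hydroxymethylcytosine (5hmC) in breast tumours. They were taken as 7 bins of the 9097 in the table, 6 that overlap the gene bodies and 1 bin next to Nfib. All 7 were among the 8576 bins tested, which are the bins of the autosomes and X above 0 in at least 1 tumour. The bins were chosen by gene and with earlier results of these data in view, selected on their 5hmC levels and, for the bin next to Nfib, on its sFlk1 difference. Levels and sFlk1 differences are therefore given as a description without a test.

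Tumours came from FVB mice and were driven by PyMT, the middle T oncogene of polyomavirus; the promoter that drives PyMT is not given in the sources used here. In the Phd2 model, mice of 16 weeks were Phd2+/- (n = 4) or Phd2+/+ (n = 3), with no plasmid. Phd2 is the oxygen sensor that marks HIF for degradation, and the labels describe Phd2+/- tumours as restored in vessels and oxygen. In the sFlk1 model, mice of 12 weeks carried the plasmid PRRL2-sFlk1 (n = 3) or the empty PRRL2 plasmid (n = 3), given by hydrodynamic injection. sFlk1 is a soluble VEGF receptor, and the labels describe these tumours as more hypoxic. The models differ in age and are not set against each other. The assay was TAB-seq (tet-assisted bisulfite sequencing): 5hmC is shielded while other cytosines are converted, so a remaining cytosine stands for 5hmC. The deposited values are 5hmC percentages per bin and tumour, without read counts, so the depth behind each value is unknown; the labels call the sequencing shallow. The mean over bins was 2.54% to 3.17% in Phd2+/- tumours, 2.18% to 2.42% in Phd2+/+ tumours, 2.39% to 2.52% in sFlk1 tumours and 2.57% to 2.86% in empty vector tumours. Whole tumours were read, so a change of 5hmC within cells and a change in the mix of cells cannot be told apart. The table holds no expression values, and the labelled tissue could not be checked against its markers.

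NFI proteins bind DNA as dimers, through a conserved domain at the start of the protein, at a palindromic site with the half-site TTGGC. They act in the development of the brain, lung, muscle and teeth, and in the mammary gland NFI sites stand in control regions of milk protein genes beside those of STAT5 and the glucocorticoid receptor. 5hmC is made from 5-methylcytosine by TET enzymes, which need oxygen, and in many tissues it is found along the bodies of active genes. It sits mainly at CpG.

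Nfia (gene ID 18027) lies on chromosome 4 from 97578066 to 98118876 (GRCm38) and is 541 kb long. Of this length, 41.0% lies in the first bin (4:97500001-97800000), 55.5% in the middle bin (4:97800001-98100000) and 3.49% in the last bin (4:98100001-98400000). Nfib (18028) lies on chromosome 4 from 82290173 to 82506751 and is 217 kb long, with 96.9% in its bin (4:82200001-82500000). The neighbouring bin, the 300 kb that end at 82200000 on chromosome 4, holds no annotated protein-coding gene. A further 6.75 kb of Nfib lies in the next bin on its other side, which the choice of bins left out. Nfic (18029), from 81396191 to 81431919 on chromosome 10, fills 11.9% of its bin (10:81300001-81600000). That bin holds 20 protein-coding genes, among them Gna11, Gna15, Fzr1, Celf5, Tle2 and Tle6. Nfix (18032), from 84704712 to 84801238 on chromosome 8, fills 32.2% of its bin (8:84600001-84900000) beside 12 other protein-coding genes such as Calr, Lyl1 and Cacna1a. A value of the Nfic or Nfix bin thus belongs mostly to DNA outside these genes, while the Nfib bin and the middle Nfia bin hold no other annotated protein-coding gene.

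The windows at annotated starts are shown for their CpG, the main sequence that can carry 5hmC. Windows of 300 bases, 250 before and 50 after the start, were taken from RefSeq (GRCm38.p6) for 3 of the 4 genes: Nfia, Nfic and Nfix. The strand is that of the gene, CpG dinucleotides are in capitals, and for Nfix the first of 4 windows is shown. They lie at 4:97581693-97581992 (+) in the first Nfia bin, at 10:81427124-81427423 (-) and at 8:84780033-84780332 (-). Each lies inside the gene body given above, downstream of the outermost start of its gene. They are thus windows at internal annotated starts, and the sequence at the outermost starts is not shown.
Nfia: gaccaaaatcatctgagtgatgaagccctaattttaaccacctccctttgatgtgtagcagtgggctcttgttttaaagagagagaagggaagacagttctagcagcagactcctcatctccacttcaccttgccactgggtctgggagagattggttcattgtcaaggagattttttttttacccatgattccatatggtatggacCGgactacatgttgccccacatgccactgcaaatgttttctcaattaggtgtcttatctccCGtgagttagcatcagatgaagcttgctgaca
Nfic: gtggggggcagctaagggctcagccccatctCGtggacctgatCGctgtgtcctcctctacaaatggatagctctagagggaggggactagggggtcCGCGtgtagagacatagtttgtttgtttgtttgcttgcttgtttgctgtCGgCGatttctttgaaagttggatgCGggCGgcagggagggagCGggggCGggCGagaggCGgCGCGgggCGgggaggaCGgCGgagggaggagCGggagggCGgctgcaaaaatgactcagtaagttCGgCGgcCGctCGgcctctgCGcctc
Nfix: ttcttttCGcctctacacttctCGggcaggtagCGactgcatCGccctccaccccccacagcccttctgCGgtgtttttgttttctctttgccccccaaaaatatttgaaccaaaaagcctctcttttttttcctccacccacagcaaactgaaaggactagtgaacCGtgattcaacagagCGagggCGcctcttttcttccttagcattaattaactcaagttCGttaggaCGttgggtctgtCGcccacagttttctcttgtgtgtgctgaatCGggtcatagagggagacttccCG
The Nfia window holds 2 CpG, the Nfix window 13 and the Nfic window 24, against a median of 7 over 32851 such windows. The other windows of Nfix hold 4, 9 and 2 CpG. The full NFI site, searched as TTGGC, 5 bases of any kind and GCCAA (the same on both strands), was in 0 of the 6 windows of the family and in 12 of all 32851 (0.0365%). The half-site TTGGC, searched on both strands and contained in the full site, was in 46.7% of all windows but not in the 3 printed here; the other Nfix windows hold 1, 1 and 2. These letters describe the windows only, since a 300 kb bin cannot resolve a promoter.

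Of the 7 bins, that of Nfib had the highest mean in every group. The Nfib bin held 13.7%, 13.1%, 11.8% and 12.2% in Phd2+/- tumours and 9.39%, 9.26% and 11.1% in Phd2+/+ tumours. It held 9.30%, 13.4% and 9.92% in sFlk1 tumours and 16.3%, 10.3% and 13.05% in empty vector tumours. Its mean over the 13 tumours, 11.7% ± 2.13 (SD, n = 13), was the second highest of all 8576 bins, whose median was 2.36% and whose highest was 14.05%. Within single tumours the Nfib bin ranked from 1 to 7 of 8576. Of the 1268 bins covered to at least 60% by 1 protein-coding gene, with a median of 2.13%, 0 had a higher mean than the Nfib bin.

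The middle bin of Nfia came next and ranked 10 of 8576 by its mean of 8.50% ± 2.51 (SD, n = 13). It held 13.3%, 11.5%, 8.33% and 8.96% in Phd2+/- tumours and 8.50%, 5.32% and 8.14% in Phd2+/+ tumours. In sFlk1 tumours it held 5.81%, 7.01% and 6.70%, and in empty vector tumours 12.2%, 5.94% and 8.82%. Its rank moved far more between tumours than that of the Nfib bin, from 4 to 431. The Nfib bin was higher than the middle Nfia bin in 13 of 13 tumours, by 3.25 ± 1.57 percentage points (SD).

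Along Nfia the level was uneven. The first bin, which Nfia covers to 74.0%, averaged 4.59% ± 1.40 (SD, n = 13). The middle bin lies wholly inside the gene and was higher than the first in 13 of 13 tumours, 1.10 to 2.93 times (median 1.88). The last bin, mostly outside Nfia and shared with Tm2d1 and Patj, averaged 4.37% ± 1.505 (SD, n = 13).

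The other bins were closer to the rest of the genome. The bin next to Nfib averaged 5.55% ± 2.02 and ranked 500, a place pooled over unlike groups: its rank in single tumours ran from 104 to 6237, and its mean of 2.95% in sFlk1 tumours was the lowest of the 7 bins there. The Nfix bin averaged 4.35% ± 1.63 and the Nfic bin 3.76% ± 1.06 (SD, n = 13 each). In the order Nfib, middle Nfia, bin next to Nfib, first Nfia, last Nfia, Nfix and Nfic, the top bin was separate from the second in all 13 tumours, and the second from the third in 12 of 13. The bin next to Nfib exceeded the first Nfia bin in 11 of 13, by 0.952 ± 1.64 percentage points (SD). From there on, neighbours in this order did not differ beyond their spread either: the first Nfia bin exceeded the last in 7 of 13 tumours, the last exceeded Nfix in 8 and Nfix exceeded Nfic in 8. These 7 bins share the tumours, and all values are levels per 300 kb, not per gene length.

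**Figure D1:**
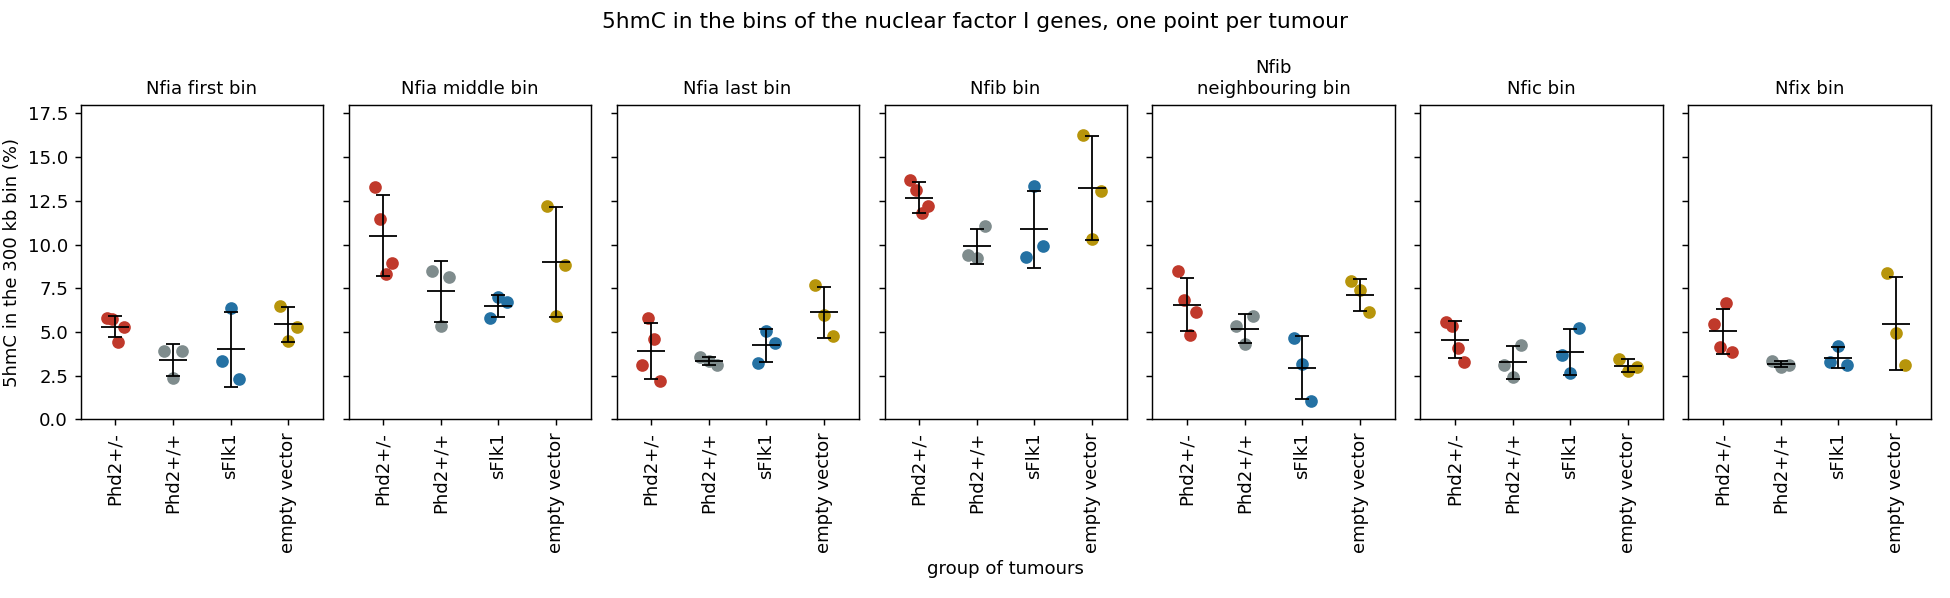
5hmC percentage (y axis) in the 7 bins (panels) by group (x axis), 1 point per tumour, with the mean and SD in black. The Nfib bin lies between 9.26% and 16.3% in all tumours, and the sFlk1 points lie below all empty vector points in the bin next to Nfib alone.

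The high bins were narrow. Against the 5 bins on each side, the Nfib bin was above all 10 flanking bins in 13 of 13 tumours, and stood at 2.10 to 4.22 times the flank median (median 2.60). The flanking means ran from 1.99% to 5.55%, the highest being the bin next to Nfib described above. The bin with the remaining 6.75 kb of Nfib had a mean of 4.26%, close to the other flanks. The middle Nfia bin was above all flanks of the gene in 12 of 13 tumours, at 2.01 to 5.08 times the flank median (median 3.28). At Nfic and Nfix there was no such peak: the ratio to the flank median had a median of 1.11 at Nfic and 1.12 at Nfix, and their bins were above all flanks in 1 and 3 tumours.

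**Figure D2:**
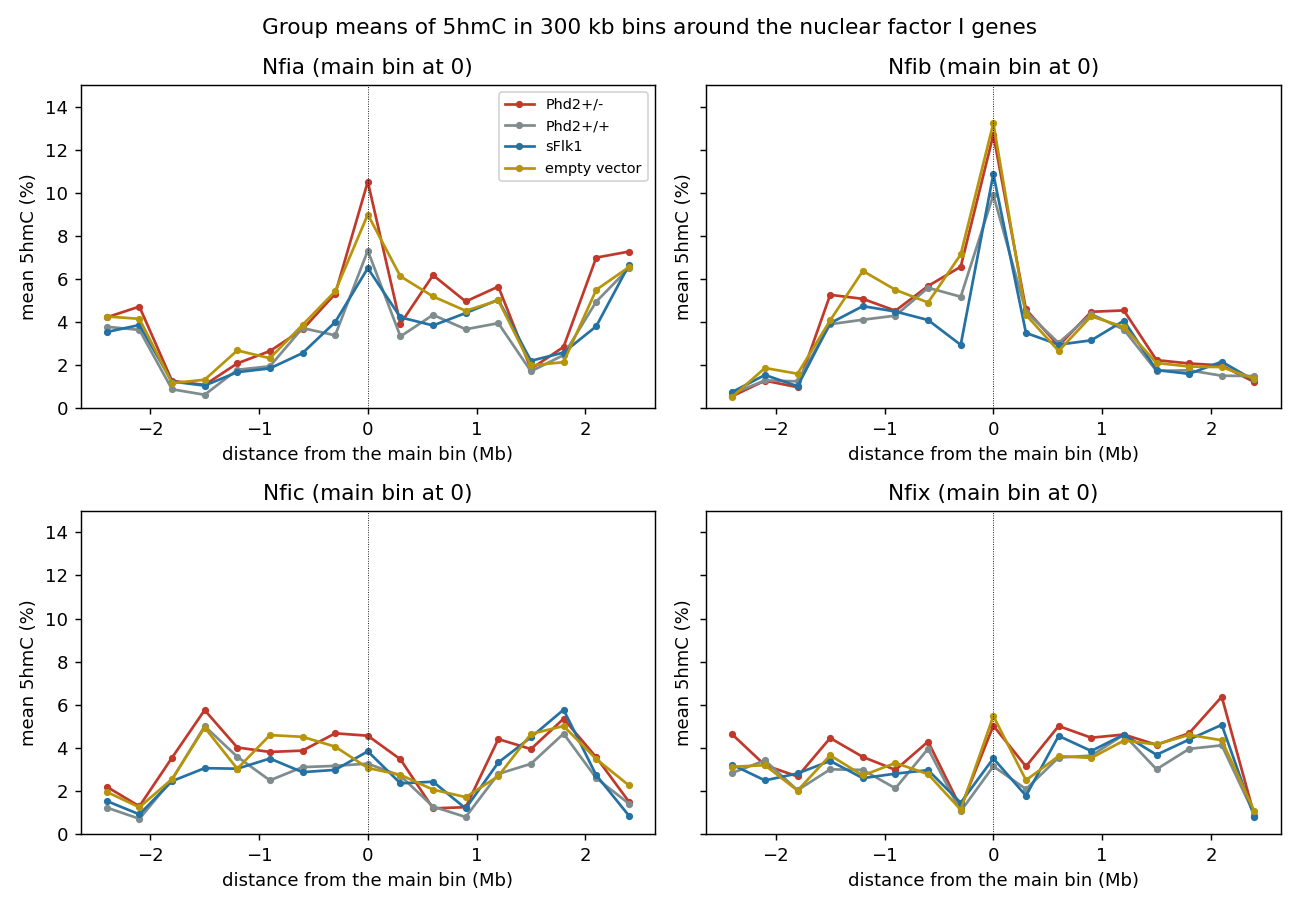
Mean 5hmC per group (y axis, %) in 300 kb bins by distance from the main bin of each gene (x axis, Mb); lines are the 4 groups. A peak 1 bin wide stands at Nfib in all 4 groups, and the sFlk1 line dips to 2.95% in the bin next to Nfib, against 7.14% in empty vector tumours.

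The comparison of Phd2+/- with Phd2+/+ tumours asks whether 5hmC differs when vessels and oxygen are restored. All 7 bins had a higher mean in Phd2+/- tumours, and 0 of 7 passed with limma after adjustment over all bins. That threshold was passed by 0.0% of all bins in either direction. A higher mean was found in 75.2% of all bins and in 95.3% of the highest 20% of bins by level, those with a mean of at least 4.17%, to which 6 of the 7 belong (all but Nfic). A higher percentage at 7 of 7 is near the background of bins this high. The median difference over the 7 bins was 1.88 percentage points, against 0.385 over all bins and 1.25 over the highest 20%.

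In the Nfib bin the mean was 12.7% ± 0.871 (SD, n = 4) in Phd2+/- and 9.90% ± 1.00 (SD, n = 3) in Phd2+/+ tumours, and the groups did not overlap. The difference was 2.79 percentage points (SE 1.89, limma adjusted p = 0.582). This SE draws on all 13 tumours and, through the trend, on bins of like level. The SD of the same bin was 2.20 in sFlk1 and 2.97 in empty vector tumours. Unadjusted limma p was 0.152, with 0.153 for the compared groups alone and 0.0391 without the trend. Over all alternatives it ran from 0.0335 (log2 scale) to 0.755 (scaled to the tumour mean), and the adjusted p was never below 0.368. In the middle Nfia bin the mean was 10.5% ± 2.30 (SD, n = 4) in Phd2+/- and 7.32% ± 1.74 (SD, n = 3) in Phd2+/+ tumours, a difference of 3.19 (SE 1.42, limma adjusted p = 0.428). Here the groups overlapped, since the lowest Phd2+/- tumour, 8.33%, lay below the highest Phd2+/+ tumour, 8.50%.

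The first Nfia bin, where the printed Nfia window lies, held 5.77%, 5.76%, 4.45% and 5.26% in Phd2+/- tumours and 3.93%, 2.35% and 3.89% in Phd2+/+ tumours, without overlap. The difference was 1.92 percentage points (SE 0.831, limma adjusted p = 0.419). The Nfix bin held 5.47%, 4.15%, 6.68% and 3.83% in Phd2+/- tumours, against 3.35%, 3.00% and 3.11% in Phd2+/+ tumours. Again the groups did not overlap, and the difference was 1.88 (SE 0.895, limma adjusted p = 0.454). Groups apart in this direction were thus found in 3 of 7 bins, against 11.0% of all bins and 23.4% of the highest 20%. Before adjustment, limma p was 0.0290 in the first and 0.0330 in the middle Nfia bin and 0.0451 in the Nfix bin. Scaled to the tumour mean, these unadjusted limma p-values were 0.179, 0.251 and 0.193, the highest over all alternatives. An unadjusted p under 0.05 with a higher mean was found in 10.4% of all bins. The share over the highest 20% was not computed for this count.

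The Nfic bin held 5.56%, 5.33%, 4.11% and 3.28% in Phd2+/- tumours and 3.12%, 2.43% and 4.28% in Phd2+/+ tumours, with overlap (difference 1.30, SE 0.715, limma adjusted p = 0.502). The bin next to Nfib held 6.57% ± 1.51 (SD, n = 4) in Phd2+/- and 5.18% ± 0.825 (SD, n = 3) in Phd2+/+ tumours (difference 1.39, SE 0.920, limma adjusted p = 0.575). Without Phd2+/- tumour 1, its highest, that difference was 0.759. The last Nfia bin differed least, with 3.92% ± 1.60 (SD, n = 4) in Phd2+/- and 3.34% ± 0.236 (SD, n = 3) in Phd2+/+ tumours (difference 0.579, SE 0.818, limma adjusted p = 0.819), and 3.08% and 2.19% in Phd2+/- tumours 1 and 4 lay below all Phd2+/+ tumours.

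The genome-wide level moved with this comparison: the mean over all bins in Phd2+/- tumours was 1.23 times that in Phd2+/+ tumours. Divided by the tumour's own mean over bins, the Nfib bin stood at 4.44 ± 0.333 times that mean in Phd2+/- tumours (SD, n = 4) and at 4.23-fold in Phd2+/+ tumours. On this scale 6 of the 7 bins had a higher mean in Phd2+/- tumours, beside 46.8% of all bins. The share over the highest bins by level was not computed on this scale, so nothing is read from this count. The groups overlapped in all 7 bins. The middle Nfia bin stood at 3.66 times the tumour mean in Phd2+/- and 3.11 times in Phd2+/+ tumours. The first Nfia bin stood at 1.86 times in Phd2+/- and 1.44 times in Phd2+/+ tumours, and the Nfix bin at 1.76 times in Phd2+/- and 1.35 times in Phd2+/+ tumours. The last Nfia bin had the other direction, with 1.34 times in Phd2+/- and 1.43 times in Phd2+/+ tumours. In percent, the 7 means were 17.3% (last Nfia bin) to 59.7% (Nfix bin) above those of Phd2+/+ tumours, and the Nfib bin 28.2%. The bins flanking Nfib differed by a median of 0.363 percentage points and those flanking Nfia by 0.424; at Nfic and Nfix the flanks differed by 0.753 and 0.842.

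**Figure D3:**
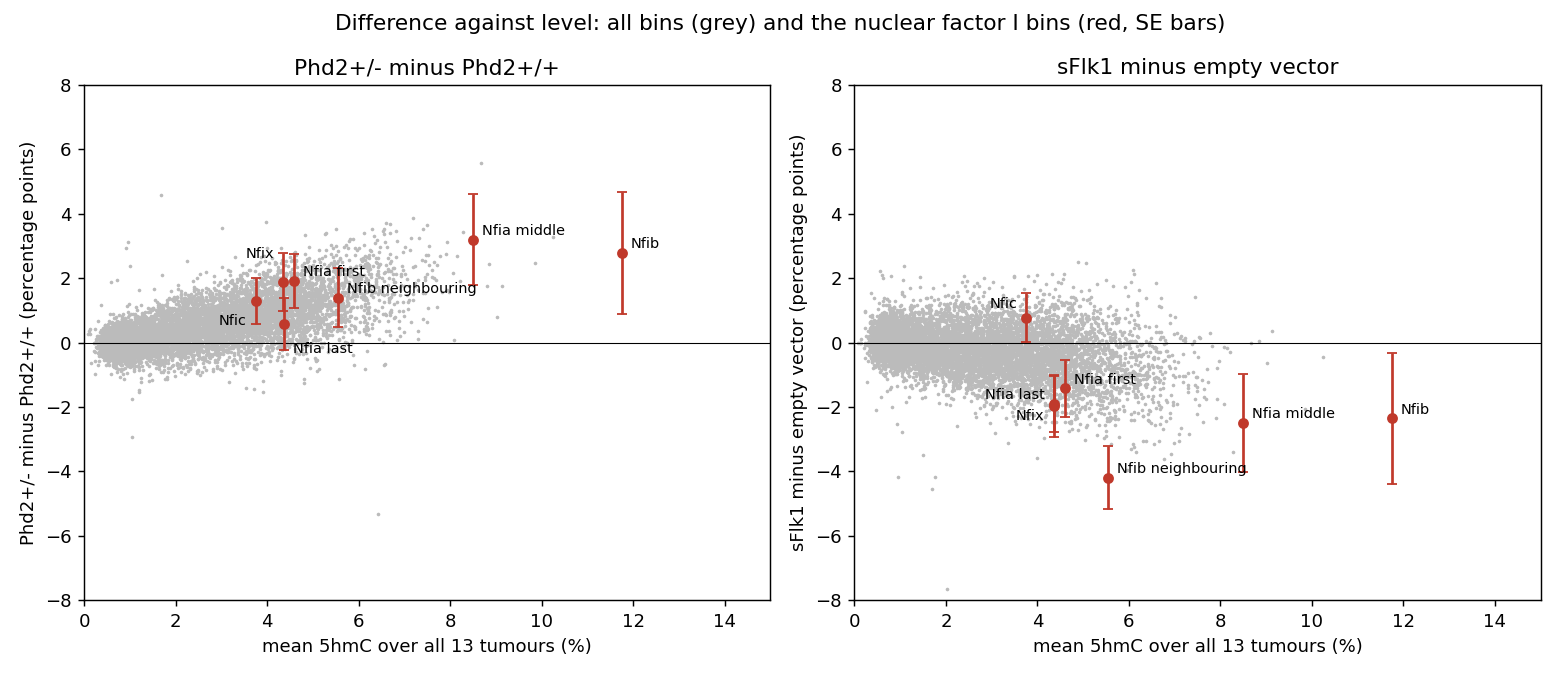
Difference between groups (y axis, percentage points) against the mean over all 13 tumours (x axis, %) for all bins (grey) and the 7 NFI bins (red, with limma SE); 2 bins beyond 8 points in each panel are not drawn. Differences widen with level in both comparisons, and the bin next to Nfib lies at -4.19 in the sFlk1 panel.

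sFlk1 tumours were set against empty vector tumours to ask what happens to 5hmC with less oxygen. The mean was lower in sFlk1 tumours at 6 of the 7 bins and higher at the Nfic bin. A lower mean was found in 59.5% of all bins and in 73.6% of the highest 20%. The median difference over the 7 bins was -1.96 percentage points, against -0.146 over all bins and -0.578 over the highest 20%. The bin next to Nfib was known to be among those with the widest sFlk1 difference when the bins were chosen, so nothing is read from these counts. Relative to the tumour mean 6 of 7 were again lower, where 51.9% of all bins were higher in sFlk1 tumours. On that scale the share over the highest 20% was not computed, and nothing is read from this count either.

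The bin next to Nfib held 4.63%, 3.16% and 1.06% in sFlk1 tumours and 7.89%, 7.41% and 6.12% in empty vector tumours. Every sFlk1 tumour lay below every empty vector tumour. This was so in 1 of the 7 bins, against 8.24% of all bins and 14.4% of the highest 20%. The means were 2.95% ± 1.80 in sFlk1 and 7.14% ± 0.917 in empty vector tumours (SD, n = 3 each), a difference of -4.19 percentage points (SE 0.983), and 4 of 8576 bins had a lower difference. In the Phd2 model the same bin held 4.83% to 8.46% in Phd2+/- and 4.29% to 5.92% in Phd2+/+ tumours. Relative to the tumour mean the bin stood at 1.94, 1.27 and 0.420 times in sFlk1 tumours and at 2.76, 2.84 and 2.38 times in empty vector tumours, still apart. With each tumour left out in turn the difference ran from -5.03 to -3.25. It narrowed most without sFlk1 tumour 3, the lowest. The bin was chosen with this sFlk1 difference in view, so these values only describe it. Its place among all bins, the gap between the groups and the range with tumours left out cannot show that the difference is sturdy.

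The Nfib bin itself overlapped between the groups, with 10.9% ± 2.20 in sFlk1 and 13.2% ± 2.97 in empty vector tumours (SD, n = 3 each; difference -2.36, SE 2.02). sFlk1 tumour 2, at 13.4%, stood above empty vector tumours 2 and 3. In the middle Nfia bin the means were 6.50% ± 0.621 in sFlk1 and 8.99% ± 3.14 in empty vector tumours (difference -2.49, SE 1.52), also with overlap. The sFlk1 values kept close together, and the spread lay in the empty vector tumours.

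The first Nfia bin held 3.34%, 6.39% and 2.28% in sFlk1 tumours and 6.51%, 4.48% and 5.29% in empty vector tumours (difference -1.42, SE 0.889). That difference was -0.563 without sFlk1 tumour 3 and -2.62 without sFlk1 tumour 2. The last Nfia bin held 3.25%, 5.07% and 4.36% in sFlk1 tumours, against 7.68%, 5.95% and 4.75% in empty vector tumours (difference -1.90, SE 0.875). In the Nfix bin the values were 3.27%, 4.20% and 3.09% in sFlk1 tumours and 8.35%, 4.97% and 3.13% in empty vector tumours (difference -1.96, SE 0.957). In each of these bins the groups overlapped. The Nfic bin held 3.67%, 2.64% and 5.22% in sFlk1 tumours, against 3.47%, 2.76% and 2.98% in empty vector tumours (difference 0.771, SE 0.764), and the difference was 0.0828 without sFlk1 tumour 3 and 1.37 without sFlk1 tumour 2.

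Empty vector tumour 1 was the highest of all 13 tumours in 4 of the 7 bins (Nfib, first and last Nfia and Nfix), and it had the highest mean over bins of its group. Without it the sFlk1 difference was -0.830 percentage points in the Nfib bin, -0.873 in the middle, -0.883 in the first and -1.13 in the last Nfia bin, and -0.531 in the Nfix bin. In the bin next to Nfib the difference without it was -3.82. Without empty vector tumour 2 the sFlk1 difference was -3.80 in the Nfib bin and -4.01 in the middle Nfia bin, without sFlk1 tumour 2 it was -3.61 in the Nfib bin, and without empty vector tumour 3 it was -3.14 in the Nfix bin. Around Nfib, 8 of the 10 flanking bins, that bin among them, had a lower mean in sFlk1 tumours (median difference -0.823), and around Nfia 6 of 10 (median -0.189). Around Nfic it was 7 of 10 (median -0.459) and around Nfix 5 of 10 (median 0.0313). The other 3 highest values, in the middle Nfia, Nfic and bin next to Nfib, belonged to Phd2+/- tumour 1.

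**Figure D4:**
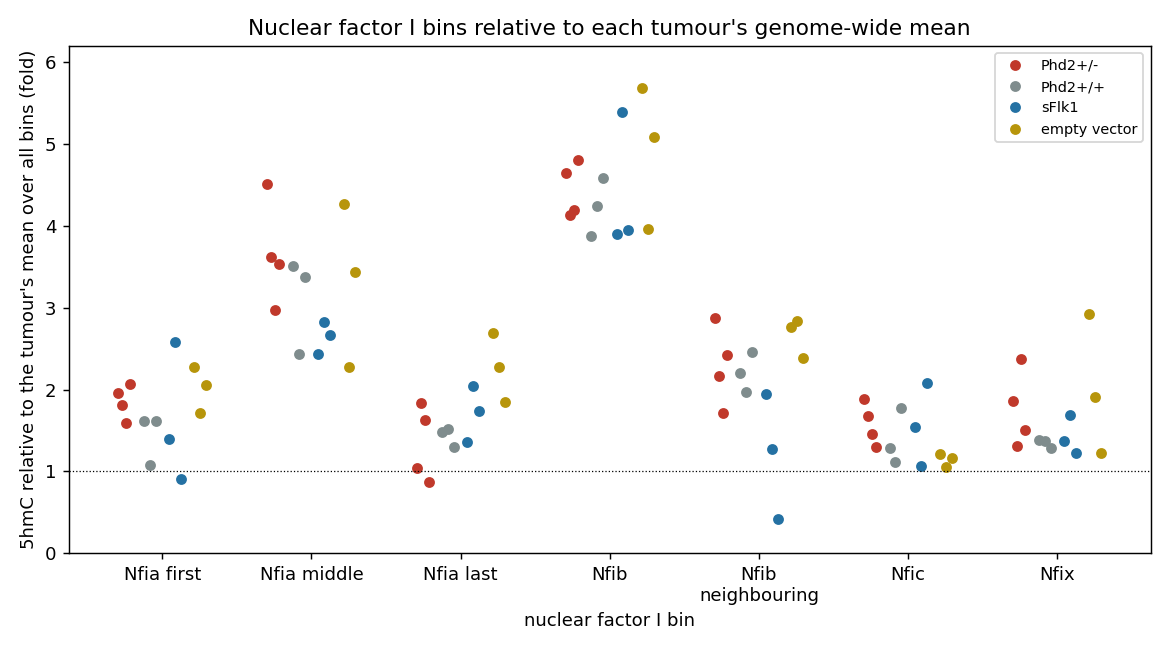
5hmC of the 7 bins (x axis) divided by the mean over all bins of the same tumour (y axis, fold), 1 point per tumour, coloured by group; the dotted line marks the tumour mean. The Nfib bin stands at 3.87 to 5.69 times the tumour mean in all 13 tumours, and only the bin next to Nfib keeps sFlk1 and empty vector points apart.

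Across the 13 tumours most pairs of the NFI bins were positively correlated. Over 21 pairs of bins Pearson r ran from -0.0633 to 0.890, with a median of 0.547, for percentages that share each tumour's library and genome-wide level. Relative to the tumour mean the median was 0.317 (-0.442 to 0.794). The highest pair on both scales was the first Nfia bin with the Nfib bin, which lie far apart on chromosome 4. The Nfic bin had a negative r with 5 of the other 6 bins relative to the tumour mean. These are descriptions over tumours of 4 groups and carry no test. Correlations between pairs of other bins of like level were not computed, so these values cannot be called particular to the family.

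A list of partners of NFI factors in the mammary gland and a list of genes with described NFI regulation were read in the same way, each gene by the bin that holds most of its body. Of the 11 partner genes, in 10 bins, 9 had a higher mean in Phd2+/- tumours and 2 a lower one, beside 75.2% of all bins and 95.3% of the highest 20% with a higher mean. With limma 0 passed after adjustment over all bins (0.0% of all bins), and 1 had an unadjusted p under 0.05, beside 10.4% of all bins. The median difference was 1.52 percentage points, against 0.385 over all bins and 1.25 over the highest 20%. These counts are near the background, and the Stat5a and Stat5b bin enters them once for each gene. Gata3, a luminal transcription factor, held 7.16% ± 1.47 (SD, n = 4) in Phd2+/- and 4.27% ± 0.900 (SD, n = 3) in Phd2+/+ tumours (limma adjusted p = 0.324). Prlr, the prolactin receptor, held 6.40% ± 0.932 in Phd2+/- and 4.77% ± 0.727 in Phd2+/+ tumours (limma adjusted p = 0.466). In sFlk1 tumours 10 of 11 had a lower mean, the shared bin again counted for both genes, beside 59.5% of all bins and 73.6% of the highest 20%. The median difference was -0.920, against -0.146 over all bins and -0.578 over the highest 20%. Stat5a and Stat5b, the prolactin-activated factors that share a bin, held 5.24% ± 0.721 in sFlk1 and 7.09% ± 1.02 in empty vector tumours (SD, n = 3 each), without overlap. That bin was named for its low limma p in this comparison, so the gap only describes it. The Gata3 bin was also lower without overlap, beside 8.24% of all bins and 14.4% of the highest 20%. Pgr, the progesterone receptor, held 0.737% ± 0.0388 in sFlk1 and 2.08% ± 1.64 in empty vector tumours, with overlap. No partner bin reached the level of the Nfib bin: the highest group mean among them was in the bin of Nr3c1 (the glucocorticoid receptor), with 8.74% ± 1.04 in Phd2+/- tumours.

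Among the 9 genes with described NFI regulation, 8 had a higher mean in Phd2+/- tumours and 1 a lower one, beside 75.2% of all bins with a higher mean. The median difference was 0.938, against 0.385 over all bins and 1.25 over the highest 20%. With limma 0 passed (0.0% of all bins), and 0 had an unadjusted p under 0.05 (10.4% of all bins were higher at that level). Csn2, which encodes beta-casein, held 5.88% ± 1.33 (SD, n = 4) in Phd2+/- and 4.11% ± 1.56 (SD, n = 3) in Phd2+/+ tumours (limma adjusted p = 0.476). Sox9, a progenitor factor, held 6.12% ± 0.840 in Phd2+/- and 4.44% ± 1.65 in Phd2+/+ tumours (limma adjusted p = 0.478). In sFlk1 tumours 4 were higher and 5 lower, beside 59.5% of all bins lower, with a median difference of -0.00448 against -0.146 over all bins. Wap, a milk protein gene, held 1.43% ± 0.555 in sFlk1 and 2.27% ± 0.485 in empty vector tumours, and Fabp7, a fatty acid binding protein of radial glia, 3.24% ± 1.36 in sFlk1 and 1.97% ± 0.471 in empty vector tumours (SD, n = 3 each).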

How the data were processed

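The authors deposited 1 table of 5hmC percentages in 300 kb bins, with 1 column for each of 13 tumours. Per the labels' protocols, DNA of frozen tumours was isolated in buffers with the iron chelator DFO, and libraries were TAB-converted, bisulfite-treated and amplified with a uracil-tolerant polymerase. The submitters' processing notes list Bismark 0.13.1 and the build mm9 without saying what each was used for. The last bins end at GRCm38 lengths (156508116 for chromosome 4), and GRCm38 is used for all positions. The sources used here do not give coverage, conversion rates or how calls were combined; an exact 0 may stand for no data.

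The members and gene lists were chosen with earlier results of these data known. Groups came from sample titles. Bins were fitted with limma 3.58.1 (R 4.3.3) on percentages, all 13 tumours with 4 group means and a trend. Adjustment was by Benjamini-Hochberg over 8576 bins at 0.05. The fit was also run on simulated data with independent noise and no shift of whole tumours, so that run cannot speak to such shifts. limma p-values assume a shared spread. Named were all NFI bins, their 5 flanking bins a side by range, 2 genes per list and comparison (lowest limma p), and the 3 bins most correlated with the mean of the 4 genes' main bins. In the sFlk1 comparison p served only to choose these genes. Nr3c1 was named after its values were seen. Alternatives were other scales, scaling to the tumour mean or median, filters on low bins, the compared groups alone, no trend, a replicate block, each tumour left out and, per gene, the mean over its body weighted by overlap.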

Additional observations from a re-analysis of the deposited data

How the results depend on the processing

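With the alternatives that were run, the count of NFI bins past the limma threshold in the Phd2 comparison stayed at 0 of 7 and the count with a lower mean in sFlk1 tumours at 6 of 7. Over all bins, the Phd2 comparison called 1 bin on the log2 scale and 1 with the replicate block, and 0 to 1 with 1 tumour left out (1 without Phd2+/- tumour 3), against 0 as reported. The sFlk1 comparison called 1 bin, and 1 to 4 with 1 tumour left out (4 without sFlk1 tumour 1, and 2 without sFlk1 tumour 2, sFlk1 tumour 3 or empty vector tumour 2). The cause was not tested. No pairing by replicate number was seen: deviations of same-numbered tumours correlated at -0.0934 to -0.00429, and 0 of 6 matched best with their own number. With shallow sequencing of unknown depth, noise could hide a pairing, so this check cannot tell whether tumours were paired. The difference of the last Nfia bin in the Phd2 comparison was negative when scaled to the tumour mean (-0.2265 percentage points) or median (-0.160) and without Phd2+/- tumour 2 (-0.0539, the lowest of -0.0539 to 1.15). Adjusted p over all alternatives ran from 0.298 to 1 in the middle Nfia and Nfix bins and from 0.368 to 1 in the Nfib bin. Weighted by overlap over the gene body, Nfia held 8.15% ± 1.502 (SD, n = 4) in Phd2+/- and 5.57% ± 1.33 (SD, n = 3) in Phd2+/+ tumours, without overlap, where the middle bin alone overlapped. Unknown depth and bins that average many genes limit all of these values.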

Other observations

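Relative to the tumour mean, the average of the main bins of the 4 NFI genes was 2.69 to 3.23 times in Phd2+/- tumours, 2.29 to 2.76 times in Phd2+/+, 2.31 to 2.74 times in sFlk1 and 2.30 to 3.52 times in empty vector tumours. Of 8561 other bins, the 3 that followed this average most closely over 13 tumours held Kcnh5, a potassium channel gene (12:74700001-75000000, Pearson r = 0.891), Arhgap26 (18:39000001-39300000, r = 0.820), and Lmnb1 with Marchf3 and C330018D20Rik (18:56700001-57000000, r = 0.817). They are the top of a search in which 50 bins had r over 0.7. The Kcnh5 bin held 5.04% ± 1.31 (SD, n = 4) in Phd2+/- and 3.02% ± 1.20 (SD, n = 3) in Phd2+/+ tumours, and 3.40% ± 1.89 in sFlk1 and 5.37% ± 2.86 in empty vector tumours (SD, n = 3 each). Since this bin was picked for following the NFI average in these same tumours, its group means tend to share that pattern through the choice.

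The bins of cell type markers were read beside these, as 5hmC and not expression. Summed over its 3 bins, the luminal epithelial list (4 genes) reached 14.8 to 16.8 percentage points in Phd2+/- and 9.39 to 14.5 in Phd2+/+ tumours, and 10.6 to 14.7 in sFlk1 and 11.7 to 16.0 in empty vector tumours. The fibroblast list (3 genes) reached 9.39 to 14.6 in Phd2+/- and 7.41 to 10.3 in Phd2+/+ tumours, and 10.5 to 12.5 in sFlk1 and 7.72 to 9.16 in empty vector tumours. The endothelial list (4 genes) reached 12.6 to 18.4 in Phd2+/- and 12.4 to 16.1 in Phd2+/+ tumours, and 11.2 to 14.8 in sFlk1 and 12.3 to 15.4 in empty vector tumours. The basal epithelial list (3 genes) reached 11.1 to 14.5 in Phd2+/- and 11.0 to 13.2 in Phd2+/+ tumours, and 8.94 to 14.9 in sFlk1 and 11.9 to 14.7 in empty vector tumours. The leukocyte list (3 genes) reached 9.68 to 12.3 in Phd2+/- and 7.44 to 11.2 in Phd2+/+ tumours, and 6.21 to 9.46 in sFlk1 and 6.77 to 11.0 in empty vector tumours. Luminal sums in Phd2+/- tumours and fibroblast sums in sFlk1 tumours lay above those of all their controls. The mean over all bins in Phd2+/- tumours was also 1.23 times that in Phd2+/+ tumours. How often sums over 3 other bins lie apart in this way was not computed. Within the luminal list, Epcam held 3.44% in Phd2+/- and 3.67% in Phd2+/+ tumours, against the direction of the sum. There were 0 marker bins at 0 in any tumour. The part of these lists in the NFI values was not tested.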
